A study of Mus musculus with 2 samples.

Results

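The basal interfollicular epidermis is the deepest keratinocyte layer of the skin between hair follicles. Here it was taken from 2 single-cell RNA libraries as every barcode that passed a set of marker thresholds. Barcodes had to hold at least 1000 unique molecular identifiers (UMIs, 1 per captured RNA molecule), at least 500 genes and under 15% mitochondrial UMIs. Per 10000 UMIs they had to reach 50 for Krt5 and Krt14 together, stay under 50 for Krt1 and Krt10, under 1 for Sox9, Lhx2 and Tbx1, and under 20 for Col1a1 and Col3a1. At least 3 of the 6 genes Wnt3, Wnt4, Wnt10a, Igfbp2, Tgfbi and Col17a1 had to be detected. These thresholds were met by 2005 barcodes, 830 of the 5178 control barcodes past the quality filter and 1175 of the 5258 induced ones.

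Both libraries were made from back skin of mouse pups at postnatal day 3, and both carry the treatment label Dox. The control library has the genotype Wildtype, and the other has the genotype miR-200b induced. Neither the construct behind the induction, the cell types in which it acts, the sex nor the number of animals per library is stated in the labels. Epidermis and dermis were dissociated apart and mixed in a ratio of 30 to 70, so the share of a cell type in a library was partly set by hand. There was 1 library per group and no replicate, so each difference below is one between 2 libraries, with no test, and every interval covers counting error only.

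Basal keratinocytes sit on the basement membrane, hold to it through hemidesmosomes, divide, and supply the spinous, granular and cornified layers above. They make the paired keratins Krt5 and Krt14 and, in young skin, Krt15, and they secrete Wnt ligands to which they also respond. The microRNA-200 family consists of short RNAs abundant in epithelia, known for repressing Zeb1 and Zeb2. A microRNA lowers its target messages mainly through pairing of its seed, bases 2 to 8, with a site in the 3′ untranslated region (3′ UTR).

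The 5 mature family members fall into groups by seed, and they are shown because the induced member, miR-200b, shares its seed with only part of the family. Sequences are from RefSeq on GRCm38.p6, 5′ to 3′, with the seed in capitals. The first 3 share the seed AAUACUG and pair with CAGTATT in a message. The last 2 carry the seed AACACUG and pair with CAGTGTT.
mmu-miR-200b-3p: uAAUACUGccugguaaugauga
mmu-miR-200c-3p: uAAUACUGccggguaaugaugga
mmu-miR-429-3p: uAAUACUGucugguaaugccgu
mmu-miR-200a-3p: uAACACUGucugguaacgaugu
mmu-miR-141-3p: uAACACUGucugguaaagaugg

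The mature microRNA is not seen by a method that reads polyadenylated RNA. The label could be checked on Gm13648, a noncoding transcript on the minus strand of chr4:156052715-156059802 (GRCm38), a span that holds the miR-200b, miR-200a and miR-429 loci. Its summed level in basal cells was 1.67 CPM (UMIs per 1000000 UMIs of the basal cells of a library, 95% interval 1.10 to 2.44) in control cells and 716 CPM (707 to 726) in induced cells. A Gm13648 UMI was found in 3.25% of control and 96.4% of induced basal cells, or in 0.724% and 72.3% once each cell was thinned to 2000 UMIs. In fibroblasts of the same libraries, taken as barcodes with at least 100 Col1a1 and Col3a1 UMIs per 10000 and under 20 of Krt5 and Krt14, the thinned shares were 0% (0 of 543, with an exact Clopper-Pearson upper bound of 0.677% and a limit from 3 counts of 0.552%) and 5.34%. The labels and this transcript pointed the same way. The 42 induced basal cells without a Gm13648 UMI were shallower, with a median of 10812.5 UMIs against 25596 in the other 1133.

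The libraries held 9072 and 9114 barcodes with 100409201 and 119705137 UMIs. Basal cells made up 16.0% (exact Clopper-Pearson 95% interval 15.04 to 17.1) of the control barcodes past the filter and 22.3% (21.2 to 23.5) of the induced ones, and no direction is read from these shares. Their UMIs summed to 16126676 and 30389365, with medians of 18304.5 and 25201 UMIs and of 4090 and 4851 genes per cell. The libraries shared 74 barcode sequences. A shared one was carried by 7 induced and 0 control basal cells. Of the barcodes with the highest 7% of doublet scores, 50 control and 48 induced ones were basal cells.

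The genes used for the gate are described here and support nothing further. Krt14 stood at 20876 CPM in control and 16478 CPM in induced basal cells, and Krt5 at 11245 and 7606 CPM. Wnt4, a secreted Wnt ligand, stood at 882 and 594 CPM, and the ligand Wnt10a at 160.0 and 183 CPM. Igfbp2, which binds insulin-like growth factors, was at 235 and 198 CPM, and the matrix protein gene Tgfbi at 314 and 243 CPM. All 6 of the detected-gene set were present in 361 control and 624 induced cells, and exactly 3 in 100 and 84. A further 62 control and 43 induced barcodes that met the other thresholds had 2 of the 6. The Sox9, Lhx2 and Tbx1 threshold removed the most, since 1039 control and 1199 induced barcodes failed it alone. Just inside it, between 0.8 and 1 per 10000, lay 52 control and 100 induced cells, and just outside, up to 1.2, lay 48 and 95.

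A pair of other barcode sets from the same libraries serves for comparison. The spinous gate held barcodes with at least 200 Krt1 and Krt10 UMIs per 10000 (176 control, 249 induced). The follicle gate held Krt5 and Krt14 barcodes with Sox9, Lhx2 and Tbx1 at 1 or more (2270 control, 1661 induced). The 6 basal markers summed to 33711 and 25302 CPM in basal cells, to 11952 and 14428 CPM in the follicle gate and to 8729 and 1665 CPM in the spinous gate. The spinous gate set no limit on Krt5 and Krt14, so its make-up could differ between the libraries. The part of that in the spinous-gate ratios given below was not tested. Of 4454 genes measured in all of these sets, 7 (0.157%) were at least 2-fold higher in basal cells than in both gates in both libraries. Of those 7, Igfbp2, Wnt10a, Tgfbi and Wnt4 belong to the gate. The others were H19, an imprinted noncoding RNA, Cbs, which makes cystathionine from homocysteine, and Sparc, a secreted matrix-binding protein. Cbs stood at 212.5 CPM in control and 109 CPM in induced basal cells, against 74.6 and 37.7 CPM in the follicle gate and 37.5 and 3.40 CPM in the spinous gate. Sparc stood at 473 and 689 CPM in basal cells, against 133 and 341 CPM in the follicle gate and 45.6 and 41.8 CPM in the spinous gate. In fibroblasts of the same libraries it stood at 13047 and 9668 CPM. The part of fibroblast RNA in its basal level was not tested. Lower in basal cells than in both gates were 16 genes (0.359%). Against the follicle gate alone, 17 of 5252 genes (0.324%) were higher and 89 (1.69%) lower, and against the spinous gate alone, 469 of 4701 (9.98%) were higher and 284 (6.04%) lower. A set defined by thresholds on the same cells gives a description, not a test.

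All 6 basal markers are gate genes, so they cannot check the label of these cells. Markers of other cell types showed an admixture on the sebaceous and upper-follicle side. The 8 sebocyte markers summed to 718 CPM in control and 61.7 CPM in induced basal cells, and none of the 8 was at 0 in either library. They reached 5 per 10000 UMIs in 80 control cells (9.64%) and 7 induced cells (0.596%), and 20 per 10000 in 11 control and 0 induced cells. Krt79, a keratin of the upper follicle and sebaceous duct, reached 2 per 10000 in 169 control and 59 induced cells. The 6 upper-follicle markers summed to 1471 and 1929 CPM, with none at 0. Melanocyte markers summed to 7.69 and 32.7 CPM, immune markers to 49.8 and 37.2 CPM, endothelial markers to 6.88 and 7.77 CPM and Merkel cell markers to 1.18 and 10.5 CPM. At 0 UMIs were Tyr and Kdr in control cells, Cd207 and Sox2 in induced cells, and Krt20 and Atoh1 in both. Fibroblast markers summed to 555 and 716 CPM, of which Sparc made up 473 and 689 CPM.

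Between the libraries, basal cells differed in Krt15, Oat and H19, all lower in the induced library, and in Gm13648, Ifitm3, Epcam, Lypd3 and Krt16, all higher there. The genes with the largest ratios in either direction are given further on. A gene was tested when its mean over the libraries was at least 20 CPM. It was called when its level differed at least 2-fold after 5 CPM had been added to both, which damps the ratio of low genes. Among 5603 tested genes, 91 (1.62%) were called higher in induced cells and 203 (3.62%) lower, 5.25% in all, and the median log2 ratio of all was -0.02. In the follicle gate, 1.99% of tested genes were higher and 3.65% lower (5.64% in all), and in the spinous gate 5.95% and 5.6% (11.5% in all). Below, a log2 ratio printed with an interval is that of the CPM themselves, and one printed without an interval has 5 CPM added. The plot of summed levels shows the named genes against all others.

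**Figure D1:**
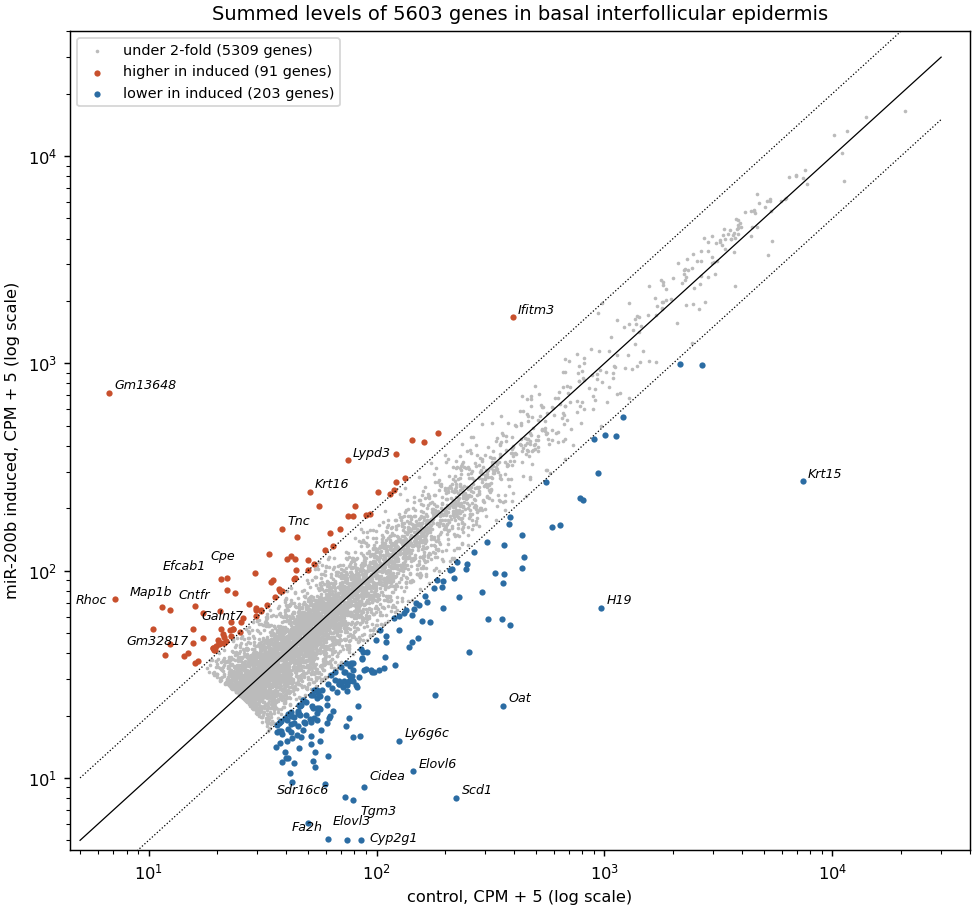
Summed level of each of the 5603 tested genes in control (x) and induced (y) basal cells, in CPM plus 5 on log axes; the solid line marks equality, dotted lines mark 2-fold, and called genes are coloured. Krt15, H19 and Oat lie far below the line, and Gm13648, Ifitm3, Lypd3 and Krt16 above it, while most genes lie within 2-fold.

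Krt15 is a type I keratin of basal keratinocytes and of follicle stem cells, on the minus strand of chr11:100131758-100135928. It stood at 7402 CPM in control and 264 CPM in induced basal cells, a log2 ratio of -4.81 (95% interval -4.84 to -4.77). The median control cell held 66.0 Krt15 UMIs per 10000 and the median induced cell 1.28. A level of at least 10 per 10000 was reached by 795 control cells (95.8%) and 91 induced cells (7.74%), and one of at least 50 by 544 and 1. The distributions therefore overlapped at their edges, and the difference was spread over the cells and not carried by a few. Among thinned basal cells, 98.2% in the control and 31.4% in the induced set held a Krt15 UMI, against 8.10% and 2.91% of fibroblasts, whose median depths were 9509 and 6196 UMIs. In the follicle gate Krt15 stood at 3616 and 947 CPM, and in the spinous gate at 2817 and 15.5 CPM. Its annotated 3′ UTR held no CAGTATT.

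Krt5 and Krt14, which share the basal layer with Krt15, are gate genes and differed by less than 2-fold. Krt14 had a median of 203 per 10000 in control cells and 155 in induced cells, and Krt5 of 114 and 72.0. Krt17, a keratin of the follicle and of stressed epidermis, had a median of 2.20 and 8.05 per 10000 and a summed level of 931 and 1746 CPM, under 2-fold apart. Control cells high in sebocyte markers or Krt79, described above, held 44.1% of the control Krt17 UMIs. Without such cells in either library Krt17 stood at 649 and 1669 CPM and was past 2-fold, so both tested stress keratins were higher, as they also were with the gate applied to thinned barcodes. Krt16, a keratin made in wounded or hyperproliferative epidermis, stood at 45.9 and 235 CPM, a log2 ratio of 2.36 (2.25 to 2.47). It was also higher in induced cells of the follicle gate (21.9 and 296 CPM) and of the spinous gate (557 and 1977 CPM).

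**Figure D2:**
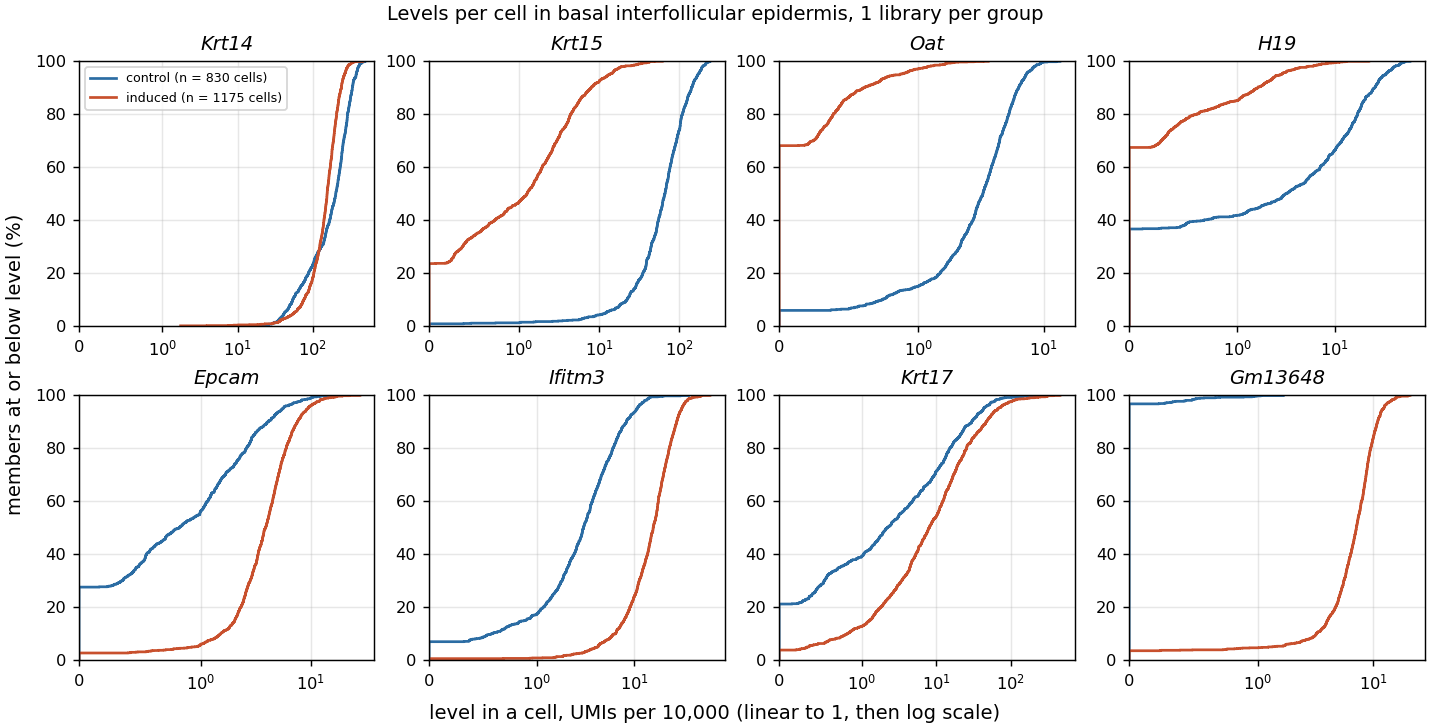
Share of basal cells (y, percent) at or below each level (x, UMIs per 10000, linear to 1 and logarithmic beyond) for 8 genes in 830 control and 1175 induced cells. The Krt14 curves cross, the induced curves of Krt15, Oat and H19 lie to the left of the control curves, and those of Epcam, Ifitm3, Krt17 and Gm13648 lie to the right.

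Oat encodes ornithine aminotransferase, the mitochondrial enzyme that links ornithine to glutamate and proline, on the minus strand of chr7:132557478-132576398. It stood at 355 CPM (346 to 365) in control and 17.3 CPM (15.9 to 18.9) in induced basal cells, a log2 ratio of -4.36 (-4.49 to -4.23). A control cell held a median of 3.29 per 10000 and an induced cell 0. Any Oat UMI was found in 94.1% of control and 31.9% of induced cells, or in 49.1% and 4.10% after thinning, against 31.5% and 23.3% of thinned fibroblasts. In the follicle gate Oat stood at 105 and 11.8 CPM and in the spinous gate at 90.9 and 0.747 CPM. Fibroblasts, which also express it, held 208 and 149.5 CPM. Of 7 tested genes of ornithine, proline and polyamine metabolism, only Oat was called. The spermine synthase gene Sms (35.2 and 68.0 CPM) and the arginine-pathway gene Asl (14.9 and 30.6 CPM) lay on the other side of 0 without passing 2-fold.

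H19, on the minus strand of chr7:142575529-142578143, stood at 963 CPM (948 to 979) in control and 61.3 CPM (58.5 to 64.1) in induced basal cells, a log2 ratio of -3.97 (-4.04 to -3.91). Control cells varied widely in it. Their lower quartile was 0, their median 3.20 and their upper quartile 14.8 per 10000. In induced cells the median was 0 and the upper quartile 0.418. In the follicle gate H19 stood at 47.8 and 17.7 CPM, in the spinous gate at 281 and 14.2 CPM, and in fibroblasts at 201 and 190 CPM.

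The 42 induced basal cells without a Gm13648 UMI lay between the libraries for several of these genes, though at lower depth. Krt15 was at 619 CPM in them and 258 CPM in the other 1133, Oat at 52.5 and 16.7 CPM, and H19 at 136 and 59.9 CPM. Epcam was at 226 CPM in them against 425 CPM, and Ifitm3 at 799 against 1682 CPM. They also held more Krt17, 4878 against 1688 CPM. These cells were split on an RNA measured in them, so the values are a description.

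Of the 12 genes with the largest ratio on the high side, Gm13648 led. Ifitm3, an interferon-inducible membrane protein that limits virus entry, had the highest level of the 12. It stood at 390.0 CPM (380 to 400.0) in control and 1666 CPM (1651 to 1680) in induced cells, a log2 ratio of 2.09 (2.06 to 2.13), with medians of 3.01 and 15.7 per 10000 in a cell. In the follicle gate its levels were 202 and 1018 CPM, in the spinous gate 35.6 and 186 CPM, and in fibroblasts 279 and 920.1 CPM. Lypd3, a surface protein of suprabasal keratinocytes, stood at 69.6 and 336 CPM. Tnc, the matrix protein tenascin C, stood at 33.3 and 154 CPM. Cpe, a carboxypeptidase that trims peptide hormones, stood at 17.0 and 86.8 CPM, a log2 ratio of 2.06. Its control level turned on which cells were counted. Without the cells high in sebocyte markers it stood at 2.92 and 86.7 CPM, a ratio of 3.53, and without cells high in stress genes, described further on, its ratio was 1.09. The latter step kept 96.6% of the control UMIs of Scd1, a sebocyte marker.

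The rest of the 12 were low in control cells. Rhoc, a small GTPase of the actin cytoskeleton, stood at 2.11 and 67.9 CPM, a log2 ratio of 5.01 (4.52 to 5.54). Map1b, which binds microtubules, stood at 6.45 and 61.8 CPM. Cntfr, the receptor subunit for ciliary neurotrophic factor, stood at 7.38 and 59.7 CPM, and Galnt7, which starts mucin-type glycosylation, at 10.9 and 62.6 CPM. Efcab1 (15.8 and 86.4 CPM) and the noncoding transcript Gm32817 (5.46 and 47.2 CPM) completed the set. Rhoc was found in fibroblasts at 183 and 154 CPM and Map1b at 306 and 118 CPM, so for these the induced basal level stayed below that of fibroblasts in both libraries.

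**Figure D3:**
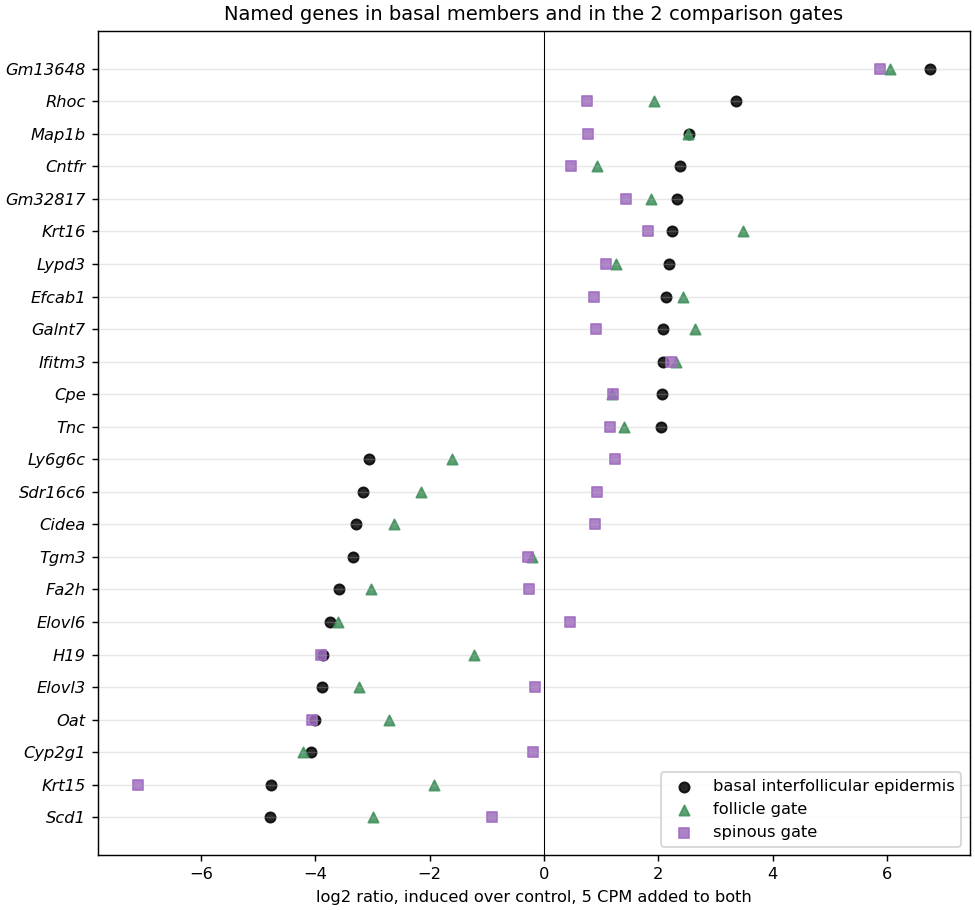
Log2 ratio of induced over control (x, 5 CPM added to both) for the 12 highest and 12 lowest named genes in basal cells (circles), the follicle gate (triangles) and the spinous gate (squares). Krt15, Oat and H19 are lower and Ifitm3 and Krt16 higher in all of these sets, whereas the lipid genes Scd1, Cyp2g1, Elovl3 and Fa2h are far below 0 in basal cells and the follicle gate and within 1 of it in the spinous gate. In the spinous gate the basal markers summed to 8729 CPM in control and 1665 CPM in induced barcodes.

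Beside Krt15, Oat, H19 and Tgm3, the 12 genes with the lowest ratio held 8 whose values have to be read with the admixture described above. They were Scd1 and Fa2h (a fatty acid desaturase and a hydroxylase), Elovl3 and Elovl6 (elongases), Cidea (lipid droplets), Cyp2g1 (a cytochrome P450), Sdr16c6 (a dehydrogenase) and Ly6g6c. Scd1 stood at 218 and 3.03 CPM and Elovl6 at 139.7 and 5.76 CPM. Cyp2g1 had 1295 UMIs in control and 1 UMI in induced cells, a log2 ratio of -11.25 with an interval of -16.56 to -8.77, while Elovl3 had 1118 and 1 UMIs (-11.04, -16.35 to -8.56) and Fa2h 907 and 3 UMIs (-9.15, -11.43 to -7.60).

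The 11 control cells with at least 20 sebocyte-marker UMIs per 10000, 1.33% of the control cells, held 94.6% of the Scd1 UMIs. They also held 86.1% of the Elovl6, 97.6% of the Cyp2g1, 97.2% of the Elovl3, 97.7% of the Fa2h and 93.1% of the Cidea UMIs. Scd1, Elovl6 and Cidea are among the markers by which these cells were picked. Their shares, and their ratios without such cells, were partly set by that choice. Cyp2g1, Elovl3, Fa2h, Sdr16c6 and Ly6g6c are not among the markers. With every cell at 5 or more left out, 750 control and 1168 induced cells remained. The log2 ratio was then -0.95 for Scd1, -0.37 for Cyp2g1, -0.43 for Elovl3, -0.30 for Fa2h, -0.01 for Cidea, -0.77 for Sdr16c6 and -0.09 for Ly6g6c, none past 2-fold. Elovl6, at -1.08, still passed it. Krt15 (-4.88), Oat (-4.10), H19 (-3.98) and Tgm3 (-3.45) stood at least as far from 0 as with all cells. Without those cells, 94 genes were higher and 184 lower, and 86 of the former and 171 of the latter were among the calls made with them.

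For 2 lipid genes the same cells set the direction. Elovl4, an elongase of very long fatty acids needed for the skin barrier, stood at 249 and 35.7 CPM with all cells, a log2 ratio of -2.64. Without the cells high in sebocyte markers it stood at 10.4 and 35.7 CPM, a ratio of 1.40, and was called the other way. Fabp5, the epidermal fatty acid carrier, stood at 679 and 527 CPM with all cells and at 153 and 528 CPM without them, a ratio of 1.75. Both genes were singled out after their values had been seen.

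Tgm3, a transglutaminase of hair and upper epidermis, stood at 74.0 CPM in control and 2.80 CPM in induced cells, a log2 ratio of -4.73 (-5.06 to -4.41). In the spinous gate it stood at 172 and 141 CPM and in the follicle gate at 3.75 and 2.59 CPM.

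Gene lists for the roles of the basal layer are described next by their counts and medians, beside the median of -0.02 over all tested genes. Over all 5603 tested genes, 1.62% were called higher and 3.62% lower. In lists this short, a few calls are not read as a result about the list. For attachment to the basement membrane, 1 of 21 tested genes was higher, 1 was lower and the median was 0.19. Hemidesmosome genes differed by less than 2-fold where named here. The integrin subunit Itga6 stood at 275 and 191 CPM, its partner Itgb4 at 109 and 125 CPM, and the plectin-related linker Dst at 317 and 276 CPM. Itgb1, the beta subunit shared by several matrix receptors, stood at 149 and 278 CPM. Col4a2, a collagen IV chain, was the gene called higher, at 17.7 and 46.8 CPM, and Frem2, a basement membrane protein, the one called lower, at 39.8 and 11.2 CPM.

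Among 21 tested regulators and markers of the basal state, 3 were lower, 0 were higher, and 20 lay below 0, with a median of -0.47. Trp63, the master factor of stratified epithelia, stood at 204 and 194 CPM, the nearest to equality of the regulators named here. Klf5 stood at 291 and 208 CPM, Tfap2a at 103 and 67.6 CPM, and Id1, a target of bone morphogenetic proteins, at 159.7 and 89.6 CPM. Krt15 was called lower, as were the growth factor Ptn (262 and 118 CPM) and the matrix proteoglycan Dcn (35.7 and 7.503 CPM). Dcn is also a fibroblast marker, at 4623 and 4633 CPM in fibroblasts of the same libraries. Of the other fibroblast markers, Col1a2 stood at 10.6 and 5.82 CPM in basal cells and Lum at 3.16 and 0.461 CPM, also lower in the induced library, while Pdgfra stood at 0.310 and 0.362 CPM. The part of fibroblast RNA in the Dcn ratio was not tested.

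The gate set an upper limit on Krt1 and Krt10, so the level of genes of the layers above was partly set by it. No result about tissue depth is read from that level. Of 11 tested differentiation regulators, 3 were lower, namely Cebpa (81.4 and 32.5 CPM), Hopx (50.4 and 20.8 CPM) and the vitamin D receptor gene Vdr (32.6 and 13.5 CPM), and 0 were higher. Without the cells high in sebocyte markers Cebpa stood at 62.0 and 32.4 CPM, under 2-fold, and without those high in Krt79 as well, 1 of 10 was lower. Klf4, a factor of barrier formation, stood at 271 and 174 CPM. Of 8 tested spinous genes, Lypd3 was higher and Krt77, Dsg1a and Tgm3 were lower, while the early differentiation gene Krtdap stood at 1126 and 1615 CPM and Dmkn at 1472 and 1143 CPM. Without the cells high in sebocyte markers 2 of the 8 were higher, and 3 without those high in Krt79 as well. Of 3 tested granular genes Cst6, a protease inhibitor, was lower at 66.7 and 24.3 CPM, but its ratio was 0.02 without the cells high in sebocyte markers.

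**Figure D4:**
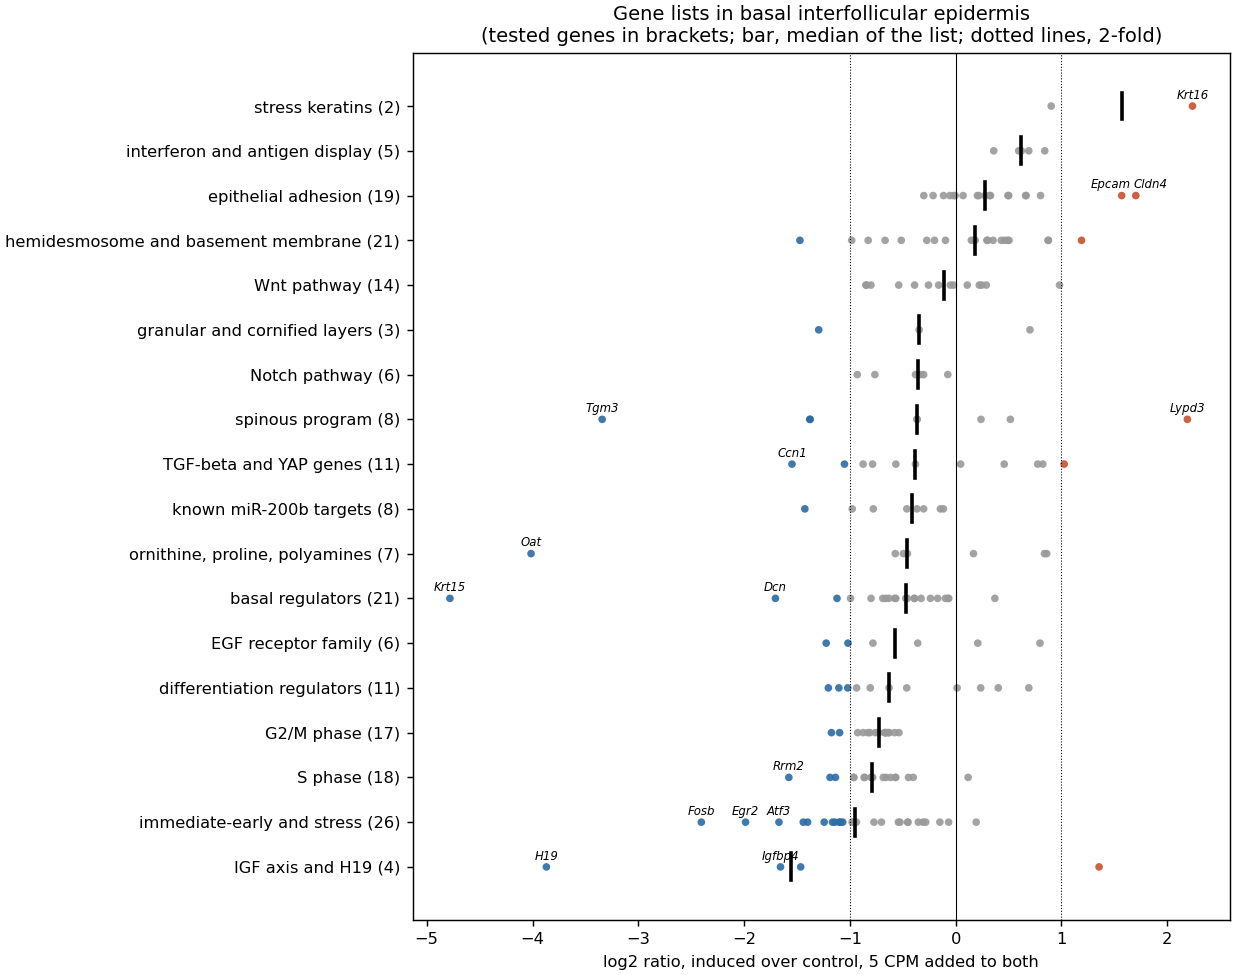
Log2 ratio of induced over control (x, 5 CPM added to both) for each tested gene of 18 lists (rows, with the number tested), in basal cells; black bars are list medians and dotted lines mark 2-fold. Immediate-early, cell cycle and IGF genes lie mostly left of 0, adhesion and antigen-display genes mostly right of it, and Wnt genes stay within 2-fold.

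The Wnt pathway genes outside the gate showed 0 of 14 tested genes past 2-fold in either direction, with a median of -0.11. The ligands Wnt7b (49.4 and 103 CPM) and Wnt6 (105 and 56.3 CPM) lay on opposite sides of 0. The receptor Lgr6 stood at 52.3 and 26.8 CPM and the response gene Axin2 at 24.99 and 15.7 CPM. Notch pathway genes likewise showed 0 of 6 past 2-fold, though all 6 lay below 0 with a median of -0.36. The Notch response gene Hes1 stood at 118 and 59.6 CPM. Without cells high in stress genes, described below, 2 of 6 Notch genes were lower, and of 15 Wnt genes 1 was higher and 1 lower.

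Of the 16 listed genes of the insulin-like growth factor axis outside the gate, H19 among them, 4 were tested. All 4 were past 2-fold, against 5.25% of all tested genes. Igfbp2, left out of that count as a gate gene, stood at 235 and 198 CPM, under 2-fold apart. With a mean over cells in place of the sum, 5 were tested, of which 1 was higher and 3 were lower. The receptor gene Igf1r was higher, at 30.2 and 85.2 CPM, a log2 ratio of 1.496 (1.36 to 1.64). The binding protein genes Igfbp3 (46.6 and 13.7 CPM) and Igfbp4 (138 and 40.4 CPM) were lower, as was H19. Among 11 tested TGF-beta and YAP genes, the receptor Tgfbr2 was higher (24.6 and 55.2 CPM), and the signal carrier Smad2 (41.5 and 17.4 CPM) and the YAP response gene Ccn1 (429 and 144 CPM) were lower. Tgfbr2 was not past 2-fold once the cells high in sebocyte markers were left out, nor Smad2, at -0.95, once those high in stress genes were. Of 6 tested genes of the epidermal growth factor receptor family, Egfr (37.3 and 13.1 CPM) and its inhibitor Lrig1 (58.4 and 26.3 CPM) were lower and none was higher. Lrig1 lay close to the threshold and passed it in 4 of 12 alternative settings. Without the cells high in sebocyte markers it stood at 54.9 and 26.1 CPM, a ratio of -0.94, and 1 of 6 genes was lower. Erbb3 stood at 29.9 and 55.8 CPM.

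Of 19 tested epithelial adhesion genes, 2 were higher in the induced library, 0 were lower and 17 were under 2-fold. Of the 19, 13 lay above 0 and 6 below, with a median of 0.28. Epcam, an adhesion protein of simple epithelia and follicle cells, on the plus strand of chr17:87635979-87651129, stood at 139 CPM (133 to 145) in control and 422 CPM (414 to 429) in induced cells, a log2 ratio of 1.60 (1.54 to 1.67). Its median in a cell was 0.821 and 3.89 per 10000. After thinning, 22.9% of control and 52.8% of induced basal cells held an Epcam UMI, against 1.10% and 2.91% of fibroblasts. Control cells high in sebocyte markers or Krt79 held 41.5% of the control Epcam UMIs. Without such cells, 644 control and 1114 induced cells gave 101 and 408 CPM for Epcam, a log2 ratio of 1.96. Cldn4, a tight junction protein, stood at 18.9 and 72.9 CPM with all cells and at a ratio of 2.39 without those cells.

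The immediate-early and stress genes, which respond within minutes to injury and also to cell dissociation, were lower in induced basal cells for 11 of the 26 tested. Of the 26, 0 were higher and 25 lay below 0, with a median of -0.95. Fos stood at 2134 and 993 CPM, Atf3 at 932 and 290 CPM and Fosb at 305 and 53.5 CPM. The 28 listed genes summed to 16394 and 9025 CPM in basal cells. In the follicle gate they summed to 15382 and 12182 CPM and in the spinous gate to 13069 and 11575 CPM. In fibroblasts the sums went the other way, at 4615 and 15629 CPM. Basal cells with at least 10 UMIs per 10000 of Atf3, Nfkbia, Irf1 and Socs3 together made up 60.2% of control and 29.7% of induced basal cells. Without them, 330 control and 826 induced cells remained. Fos then stood at 978 and 629 CPM, a ratio of -0.63 and no longer past 2-fold. Junb, Ier2, Dusp1, Btg2, Dnajb1 and Nr4a1 were no longer past it either. Of the 23 genes then tested 4 were lower, with a median of -0.49. Fosb (165 and 42.3 CPM) was among them, as was Atf3 (99.7 and 46.8 CPM), which is itself one of the genes by which the cells were left out. In the same cells, 105 genes were higher and 250 lower in all, and Krt15 kept a ratio of -4.70, Oat of -3.90, H19 of -3.62, Ifitm3 of 2.35 and Epcam of 1.49. Leaving out cells high in stress genes raised the weight of the sebocyte admixture. The 330 control cells held 96.6% of the control Scd1 UMIs and 98.5% of the Cyp2g1 UMIs. The median ratio of 6 tested sebocyte markers was -4.26 in this setting, against -3.17 with all cells. Every count and ratio given without cells high in stress genes carries that limit.

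Of 14 listed interferon and antigen-display genes, 5 were tested. All 5 lay above 0, with a median of 0.62 and none past 2-fold. The class I antigen genes H2-K1 (104 and 190 CPM) and H2-D1 (155 and 237 CPM) and their partner B2m (64.1 and 101 CPM) were among them. Ifitm3, described above, is not on this list and was past 2-fold. The listed genes summed to 498 and 800 CPM in basal cells and, the other way, to 936 and 829 CPM in fibroblasts.

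Of 18 tested S phase genes 3 were lower in the induced library and 17 lay below 0, with a median of -0.79. Rrm2, a ribonucleotide reductase subunit, stood at 92.1 and 27.6 CPM, and Mcm7, part of the replication helicase, at 80.9 and 32.7 CPM. All 17 tested G2/M genes lay below 0, with a median of -0.73, and 2 were past 2-fold. Those were the mitotic cyclin Ccnb1 (56.0 and 23.5 CPM) and the spindle protein Nusap1 (51.3 and 19.97 CPM). With a mean over cells in place of the sum, 0 of 16 G2/M genes were past 2-fold, and without cells high in stress genes 5 of 19 were lower. With each cell thinned to 2000 UMIs, at least 2 UMIs of the 20 G2/M genes were found in 21.8% of control cells (181 of 829, 19.1 to 24.8) and in 14.8% of induced cells (173 of 1171, 12.8 to 16.9). Without thinning the shares were 47.5% and 47.9%, at a median depth that was higher in the induced library. Sums were also lower in other induced sets. G2/M genes summed to 1359 and 776 CPM in basal cells and 1762 and 911 CPM in the follicle gate. In fibroblasts they summed to 594 and 70.1 CPM, and in the spinous gate, the other way, to 28.9 and 63.9 CPM. S phase genes summed to 1401 and 775 CPM in basal cells and 1525 and 741 CPM in the follicle gate. In fibroblasts they summed to 491 and 188 CPM.

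Seed matches to miR-200b were looked for in the longest annotated 3′ UTR of each gene (GENCODE vM21, GRCm38), as CAGTATT on the sense strand. Of the 5531 tested genes with such an annotation, 837 held at least 1 match. Their median log2 ratio was -0.21, against -0.02 over all 5531 and 0.00 over the 4694 without a match. At least 2-fold lower were 63 of the 837 (7.53%), against 3.58% of all 5531, and at least 2-fold higher were 3 (0.358%), against 1.54%. The median was -0.18 over 681 genes with 1 match, -0.29 over 127 with 2 and -0.53 over 29 with 3 or more. It was -0.33 over 191 genes with a match extended to 8 bases, CAGTATTA.

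The same count was made for other seeds, whose matches have their own base composition and overlap in part with those of miR-200b. Genes with a miR-200a match, 1124 in all, had a median of -0.12, and the 786 of them without a miR-200b match had one of -0.08. The medians were 0.03 for let-7 (515 genes), -0.05 for miR-124 (862), -0.06 for miR-1 (627) and -0.03 for miR-122 (448). Long 3′ UTRs hold more matches of any kind. Among 3′ UTRs of at least 1500 bases the median was -0.20 over 613 genes with a miR-200b match and 0.00 over 1558 without. Among those of 500 to under 1500 bases it was -0.25 over 189 and 0.01 over 1702, and among those under 500 bases -0.44 over 35 and 0.01 over 1434. The difference between genes with and without a match was therefore present in each of these length classes.

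**Figure D5:**
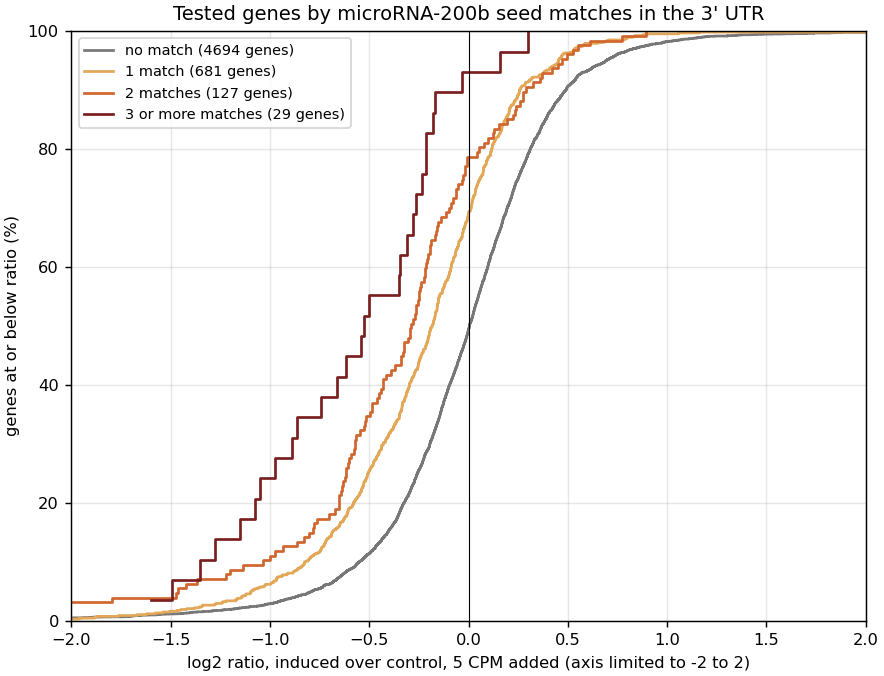
Share of tested genes (y, percent) at or below each log2 ratio of induced over control (x, 5 CPM added, axis limited to 2 either side of 0) in basal cells, by the number of CAGTATT matches in the 3′ UTR. The curves lie further to the left with each added match, with medians of 0.00, -0.18, -0.29 and -0.53.

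The matched sites below are shown because they belong to those of the 10 lowest genes with a match that stayed past 2-fold without the cells high in sebocyte markers, and to Cfl2 and Msn among known targets. Each line gives the sense strand of the message, 5′ to 3′, on GRCm38, with the seed match in capitals. A match is a description of the sequence and not evidence of binding.
Oat, minus strand of chr7:132557654-132557676: taaaacatttattttCAGTATTt
Fosb, minus strand of chr7:19304046-19304068: gctcccacccctgtgCAGTATTa
Slc16a1 first site, plus strand of chr3:104656513-104656535: ctgatttaatgtatgCAGTATTt
Slc16a1 second site, plus strand of chr3:104656834-104656856: ttttacattgtttttCAGTATTt
Sptssa first site, minus strand of chr12:54646162-54646184: tttgtactttgatatCAGTATTt
Sptssa second site, minus strand of chr12:54645629-54645651: tcagatcctctgaggCAGTATTg
Acsbg1, minus strand of chr9:54604904-54604926: ttaatatgtaattttCAGTATTa
Foxo1, plus strand of chr3:52351909-52351931: gatcccttgagcccaCAGTATTg
Tuba1b, minus strand of chr15:98931537-98931559: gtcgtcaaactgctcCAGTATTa
Smc2 first site, plus strand of chr4:52487009-52487031: tttaatttctaagtaCAGTATTa
Smc2 second site, plus strand of chr4:52487315-52487337: aaatgtgttattacaCAGTATTa
Cfl2 first site, minus strand of chr12:54860971-54860993: atataagaagcctgtCAGTATTg
Cfl2 second site, minus strand of chr12:54860748-54860770: atgggagacttgtttCAGTATTa
Msn first site, plus strand of chrX:96167901-96167923: tcttttaatttttacCAGTATTa
Msn second site, plus strand of chrX:96168092-96168114: tatgtaagaagatttCAGTATTa

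The 10 genes with a match and the lowest ratios were Scd1, Oat, Fosb, Slc16a1, Cers4, Sptssa, Acsbg1, Foxo1, Tuba1b and Smc2. Slc16a1, a lactate transporter, stood at 74.1 and 10.8 CPM, a log2 ratio of -2.77 (-2.96 to -2.60). It was lower in the follicle gate (35.9 and 9.58 CPM) and the spinous gate (36.7 and 3.82 CPM) as well. Sptssa, a subunit of the enzyme that starts sphingolipid synthesis, stood at 353 and 82.1 CPM, with 383 and 70.9 CPM in the follicle gate and 623 and 219 CPM in the spinous gate. Tuba1b, an alpha tubulin, stood at 801 and 215 CPM, Foxo1, a transcription factor under insulin control, at 38.4 and 6.78 CPM, and the condensin gene Smc2 at 116 and 29.9 CPM. Acsbg1, which activates long-chain fatty acids, stood at 70.4 and 14.4 CPM, a ratio of -1.96, and at 38.5 and 14.2 CPM without the cells high in sebocyte markers, a ratio of -1.18. Fosb belongs to the immediate-early genes described above, and Scd1 to the sebocyte markers. Cers4, a ceramide synthase at 56.4 and 7.77 CPM, had a ratio of 0.79 without the cells high in sebocyte markers.

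Of 24 listed miR-200b targets known from other tissues, 8 were tested. All 8 lay below 0, with a median of -0.41, against 52.7% of all tested genes with an annotated 3′ UTR. Only 1 of the 8 was at least 2-fold lower, against 3.58% of those genes. That was Cfl2, an actin-severing cofilin, at 84.6 CPM (80.2 to 89.2) in control and 28.4 CPM (26.5 to 30.3) in induced cells, a log2 ratio of -1.58 (-1.70 to -1.45). In the follicle gate it stood at 85.8 and 38.2 CPM. Msn, which ties actin to the membrane, stood at 108 and 52.3 CPM, a log2 ratio of -1.04, and just under 2-fold once 5 CPM was added. Without the cells high in sebocyte markers, 2 of 8 tested targets were lower. Zeb1 had 3 UMIs in control and 4 in induced cells, and Zeb2 had 22 and 64, levels too low for a ratio to be read in this layer.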

How the data were processed

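The deposited matrices hold raw counts of UMIs per gene and barcode from 10x Genomics 3′ v3.1 libraries. The authors made these counts with Cell Ranger 6.0.0 on mm10, per the submitters' processing notes. The annotation release behind them is not given in the sources used here. The cells and the gene lists were chosen with earlier results of these data known, and support nothing on that account. UMIs of the gated cells were summed per library and scaled to CPM, with exact Poisson 95% intervals and exact conditional binomial intervals for ratios. Intervals of shares are Clopper-Pearson ones. Barcodes were not filtered for doublets, since the automatic Scrublet threshold marked only 3 control and 1 induced barcodes. Named genes were members of 18 pathway and 12 marker lists, the 12 highest and 12 lowest ratios among called genes, and the 10 lowest with a seed match. Left out of that ranking were gate, sex-linked, mitochondrial, ribosomal protein, haemoglobin and cell cycle genes. Of 32285 genes in the matrices, 32158 matched GENCODE vM21 and 20869 had a 3′ UTR. Sums and intervals came from scipy 1.17.1 with pandas 2.3.3 and numpy 2.4.6 under Python 3.11.15, doublet scores from scanpy 1.11.5 and plots from matplotlib 3.10.9. The ratios, intervals and calls were tested on simulated Poisson sums, which hold no spread between cells. Gating, thinning, doublet scores and seed-match counts were not tested in that way. Alternatives to the filters, the gate, the scaling, the added CPM and the seed match were computed. Those that leave out cells high in sebocyte markers or Krt79 were chosen after seeing the data.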

Additional observations from a re-analysis of the deposited data

Results flagged for a closer look

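For 4 genes the basal cells and the spinous gate of the same libraries differed in opposite directions, each by at least 2-fold. This difference was not tested, since each set had 1 library per group. The spinous gate also differed between the libraries in its basal-marker sum, 8729 CPM in control and 1665 CPM in induced barcodes. With 5 CPM added, Ly6g6c had a log2 ratio of -3.05 in basal cells and 1.25 in the spinous gate. Hopx, a differentiation regulator, had -1.10 and 1.67. Krt77, a suprabasal keratin, had -1.37 and 2.23. Krt79 had -2.60 and 1.08. Without basal cells high in sebocyte markers, the basal ratio was -0.09 for Ly6g6c and -1.52 for Krt79, and without those high in stress genes it was -2.21 for Krt77. The control cells left by the latter step held 96.6% of the control Scd1 UMIs.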

How the results depend on the processing

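No paired analysis was possible because each group had 1 library and the labels give no replicate numbers. The share of basal cells was 25.2% in the induced library with 3000 UMIs, 1500 genes and 10% mitochondrial UMIs as limits. With 4 of the 6 genes required it was 14.1% and 20.7%, and with the gate applied after thinning to 5000 UMIs it was 14.1% in the control library. The cycling share of control cells was 25.2% without cells high in stress genes, and without thinning the shares were 47.5% and 47.9%. Genes at least 2-fold higher and lower numbered 39 and 106 with 20 CPM added, 198 and 359 over all genes with 1 UMI, and 44 and 86 with a minimum of 50 CPM. In the other settings they numbered 90 to 120 and 175 to 250. The median of genes with a miR-200b match lay -0.19 from that of all genes, -0.084 over all genes with 1 UMI and -0.31 with the 8-base match. Leaving out cells high in sebocyte markers turned the ratio of Cers4 to 0.79 and of Cst6 to 0.022. Leaving out those high in Krt79 as well gave 0.88 for Cers4, 0.16 for Cst6, 0.045 for Cidea and 0.20 for Ly6g6c. Krt15, Oat, H19, Ifitm3 and Epcam stayed past 2-fold in all 12 settings run for them. One library per group leaves differences between animals, dissociations and runs unmeasured.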

Other observations

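A small part of the induced basal cells kept Krt15. The 91 cells with at least 10 Krt15 UMIs per 10000 held 37.7% of the Krt15 UMIs of the induced cells. Oat stood at 39.3 CPM in them, against 17.3 CPM over all induced cells, Krt79 at 231 against 53.2 CPM, and Gm13648 at 606 against 716 CPM. Their median depth was 16858 UMIs, against 25201 over all induced cells. The 59 induced cells with at least 2 Krt79 UMIs per 10000 had Krt15 at 1100.1 CPM and Krt17 at 4428 CPM.

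Among control cells, the 169 with at least 2 Krt79 UMIs per 10000 had less Krt14 (8115 CPM) than all control cells (20876 CPM). They also had less H19, 77.5 against 963 CPM, and more Krt17, 1991 against 931 CPM. The 80 control cells high in sebocyte markers had H19 at 86.9 CPM. These groups were split on genes measured in the same cells and give no test.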
